A study of Mus musculus with 9 samples.

Results

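Subcutaneous tumours of the N134-RHAMMB cell line were compared with subcutaneous tumours of the parental N134 line at the level of messenger RNA. The genes described are those with at least 5 FPKM (fragments per kilobase of transcript per megafragment mapped) in all 3 libraries of at least 1 of the 2 groups, which gave 9158 of the 21944 protein-coding genes in the deposited table. Of these, 8565 reached that level in both groups, 345 in N134 tumours only and 248 in N134-RHAMMB tumours only. Arhgap8 lay just inside the threshold at a lowest value of 5.00032 FPKM, and Plscr4 just outside it at 4.99964 FPKM.

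N134 is a mouse pancreatic neuroendocrine tumour line, and N134_RHAMMB is the line that the labels name for RHAMMB, a splice form of RHAMM, which binds hyaluronan. Both lines were injected under the skin of NSG mice (NOD.Cg-PrkdcscidIl2rgtm1Wjl/SzJ), a strain without mature B, T and natural killer cells whose macrophages, fibroblasts and vessels still enter a graft. The groups are N134 tumours 1, 2 and 3 and N134-RHAMMB tumours 1, 2 and 4, and the 9-sample series also holds 3 liver metastases of N134-RHAMMB cells given by the tail vein. The labels give no age, sex, drug, promoter or construct sequence, and they do not say that the tumours came from separate animals. The p-values therefore measure a spread between libraries that may be technical only. One line was set against one other line, so RHAMMB and any other difference between the lines cannot be told apart.

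Islet beta cells make insulin from proinsulin, which is folded in the endoplasmic reticulum, cut by prohormone convertases and stored with granins in dense granules. Beta cell tumours keep much of this machinery and can also express hormones of neighbouring islet or gut endocrine cells, among them gastrin, cholecystokinin and the incretin GIP. RHAMM is known both as a receptor for hyaluronan at the cell surface and as a protein of the mitotic spindle. A subcutaneous graft is a mixture of tumour cells and host stroma, blood and skin.

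The defining transcripts of the labelled tumour type were present in every tumour. Ins2, an insulin gene, stood at 30636 to 34119 FPKM in the N134 tumours and 21154 to 28390 FPKM in the N134-RHAMMB tumours, and Iapp, which encodes the islet peptide amylin, at 3233 to 3615 FPKM over the 6. Depth, estimated from the steps of single fragments, was 14.72 to 17.48 megafragments, and 12057 to 12363 genes reached 1 FPKM. Pearson's r across genes was 0.982 to 0.988 between libraries of a group and 0.973 to 0.980 between the groups. Skeletal muscle transcripts stood apart in N134-RHAMMB tumours 2 and 4: the 19 muscle genes with a row summed to 235 and 298 FPKM there, against 33.8 FPKM in N134-RHAMMB tumour 1 and 31.1 to 46.1 FPKM in the N134 tumours. Keratinocyte transcripts summed to 95.5 FPKM in N134-RHAMMB tumour 2 and to 15.97 to 42.3 FPKM in the other 5.

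Hmmr (ENSMUSG00000020330, chromosome 11), which encodes RHAMM, was not called. Its values were 44.9, 39.2 and 42.7 FPKM in the N134 tumours and 50.2, 51.3 and 49.2 FPKM in the N134-RHAMMB tumours. The N134-RHAMMB values all lay above the N134 values, a difference of 0.25 on the log2(FPKM + 1) scale (SE 0.10, limma adjusted p = 0.354) that did not pass. Which species the construct comes from, and its sequence, are not given in the labels, so Hmmr does not check them.

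Most genes moved little between the lines. On the log2(FPKM + 1) scale, on which every change below is given as N134-RHAMMB minus N134, the median absolute change over the 9158 genes was 0.146. The change was within 0.5 of 0 in 93.5% of them, at 1 or more in 31 and at -1 or less in 43. The limma fit of all 9 libraries called 17 of the 9158 (0.186%) at an adjusted p below 0.05, beside 25 of the 12854 genes tested in all (0.194%). Of the 17, 9 were higher in N134-RHAMMB tumours (0.0778% of all genes tested were called higher) and 8 lower (0.117% called lower). The shares among the 9158 and among all genes tested were close.

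The number of calls changed with the libraries in the fit. Without N134 tumour 1, 2 or 3 the count over the 9158 was 0 each time, and without N134-RHAMMB tumour 1, 2 or 4 it was 4, 2 and 2. Without metastasis 2, which enters this fit through the shared estimate of spread and not the contrast, the count was 139. The sizes of change moved less than the counts. Over the fits without 1 library Ephx1 ran from 1.28 to 1.38, Pdgfra from -1.42 to -1.30, Gmnn from -0.61 to -0.54 and Gip from -4.97 to -3.97. An unadjusted p below 0.05 was reached by 1163 genes. When limma was fitted to the 6 subcutaneous libraries alone, 114 of the 9158 were called (1.24%, beside 1.31% of all genes tested), among them all of the 17. Of the 114, 70 were higher in N134-RHAMMB tumours (0.739% of all genes tested were called higher) and 44 lower (0.576% called lower), and leaving out 1 library at a time gave 1 to 67. Below, "rose" and "fell" are kept for genes called over 9 libraries.

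**Figure D1:**
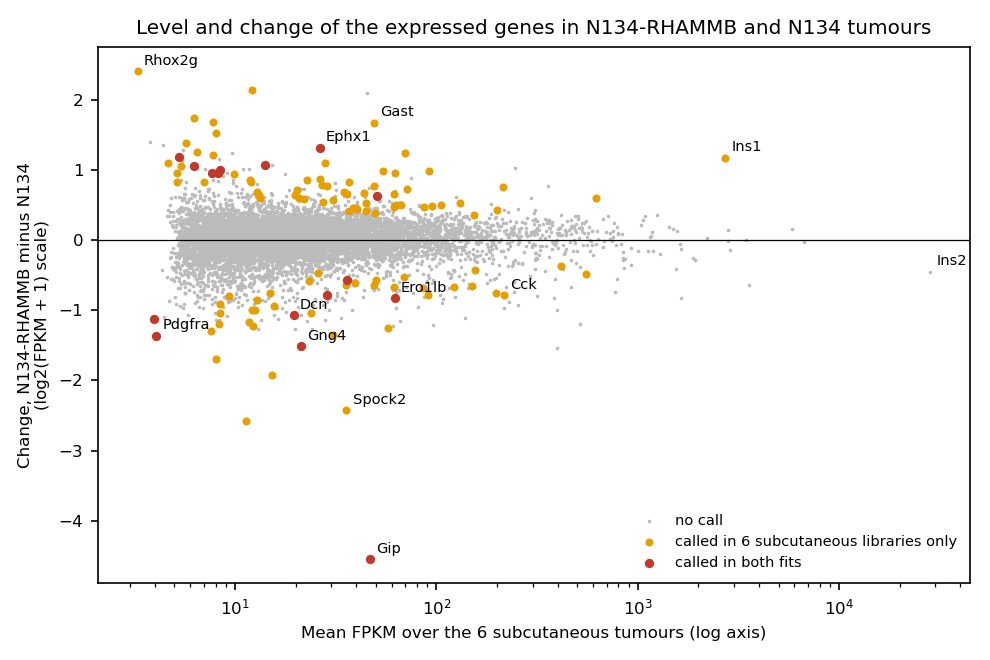
Each point is an expressed gene, with its mean FPKM over the 6 subcutaneous tumours on a log axis and its change (N134-RHAMMB minus N134, log2(FPKM + 1) scale) on the vertical axis. Red points were called in both fits (16 of the 17 are drawn) and orange points in the fit of the 6 subcutaneous libraries only. Gip lies at -4.55, and most points lie within 0.5 of 0.

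Hormone genes held the largest fall and moved in both directions. Gip, whose peptide is released by gut K cells and raises insulin secretion, fell 25.6-fold in mean FPKM. Cck, which encodes cholecystokinin, was lower in N134-RHAMMB tumours, and Gast, which encodes gastrin, and Ins1, an insulin gene, were higher. To show the start of these 4 genes, the 250 bases before each RefSeq start (GRCm38.p6) are given 5′ to 3′ on the strand of the gene, Gip at chr11:96024295-96024544 (plus), Cck at chr9:121495695-121495944 (minus), Gast at chr11:100334157-100334406 (plus) and Ins1 at chr19:52264047-52264296 (plus). Capitals mark a GATA-type motif, spelled AGATAA, on either strand. They also mark the short core that many homeodomain proteins bind, spelled TAAT, on either strand. Both motifs were chosen after the values were seen.
Gip: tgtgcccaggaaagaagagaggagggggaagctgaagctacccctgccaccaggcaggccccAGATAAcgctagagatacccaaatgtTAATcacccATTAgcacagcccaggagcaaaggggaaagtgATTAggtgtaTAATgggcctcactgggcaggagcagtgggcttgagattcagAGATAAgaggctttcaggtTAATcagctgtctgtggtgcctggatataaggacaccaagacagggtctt
Cck: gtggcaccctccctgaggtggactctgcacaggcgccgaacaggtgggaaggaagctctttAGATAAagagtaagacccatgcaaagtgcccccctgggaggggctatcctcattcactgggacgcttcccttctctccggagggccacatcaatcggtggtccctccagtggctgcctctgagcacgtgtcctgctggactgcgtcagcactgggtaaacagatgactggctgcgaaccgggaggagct
Gast: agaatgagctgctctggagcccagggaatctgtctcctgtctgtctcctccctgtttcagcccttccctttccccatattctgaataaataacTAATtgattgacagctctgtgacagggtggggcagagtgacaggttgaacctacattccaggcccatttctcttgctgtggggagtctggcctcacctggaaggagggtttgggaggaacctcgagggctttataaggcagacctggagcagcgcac
Ins1: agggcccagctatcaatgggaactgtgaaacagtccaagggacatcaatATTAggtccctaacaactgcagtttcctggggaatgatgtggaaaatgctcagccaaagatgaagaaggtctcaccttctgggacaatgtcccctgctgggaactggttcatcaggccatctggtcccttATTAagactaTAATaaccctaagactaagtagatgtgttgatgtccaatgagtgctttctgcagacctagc
The Gip window held 2 GATA-type and 5 homeodomain-core matches, the Cck window 1 and 0, the Gast window 0 and 1 and the Ins1 window 0 and 3. The GATA-type motif was found in 9.99% and the homeodomain core in 54.9% of 32851 RefSeq windows of that length, and no match of one overlapped a match of the other in these 4. The matches are a description of letters and were not tested against the changes. Starts were taken as RefSeq lists them, and where transcripts begin in these tumours was not measured. The windows may therefore differ in their distance from it.

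Gip (ENSMUSG00000014351, chromosome 11, 96024545 to 96030831, GRCm38) stood at 89.9, 95.8 and 85.1 FPKM in the N134 tumours and at 6.05, 3.79 and 0.759 FPKM in the N134-RHAMMB tumours. All N134-RHAMMB values lay far below the N134 values, with means of 90.3 ± 5.39 and 3.53 ± 2.65 FPKM (SD, n = 3) and a change of -4.55 (SE 0.40, limma adjusted p = 0.00539). Gip was also called with a minimum change of 0.5 and without any single N134-RHAMMB tumour, and it missed the threshold without any single N134 tumour.

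Cck (ENSMUSG00000032532) stood at 287, 280 and 251 FPKM in the N134 tumours and at 151, 167 and 157 FPKM in the N134-RHAMMB tumours. The groups did not overlap, and its change of -0.78 had adjusted p = 0.591 in the 9-library limma fit (SE 0.54) and adjusted p = 0.0147 in the fit of the 6 subcutaneous libraries (SE 0.08). In metastases it ranged from 44.8 to 345 FPKM, a spread that enters the first fit and not the second. Gast (ENSMUSG00000017165) stood at 22.4, 22.7 and 22.2 FPKM in the N134 tumours and 89.2, 79.3 and 57.3 FPKM in the N134-RHAMMB tumours. Every N134-RHAMMB tumour lay above every N134 tumour (1.68, limma adjusted p = 0.318 over 9 libraries and 0.0147 over 6).

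Ins1 and Ins2 both encode insulin, and neither was called over 9 libraries. Ins1 (ENSMUSG00000035804) stood at 2056, 1418 and 1537 FPKM in the N134 tumours and at 4001, 3062 and 4211 FPKM in the N134-RHAMMB tumours (1.17, limma adjusted p = 0.366 over 9 libraries and 0.0367 over 6). Ins2 (ENSMUSG00000000215) stood at 33317, 30636 and 34119 FPKM and at 22775, 28390 and 21154 FPKM (-0.45, adjusted p = 0.356 and 0.278 in limma). Neither pair of groups overlapped, and the 2 genes are near-identical in part, so reads may have been split between them. Npy, which encodes neuropeptide Y, stood at 3671 to 5404 FPKM in the N134 tumours and 2634 to 2981 FPKM in the N134-RHAMMB tumours (-0.64, adjusted p = 0.562 in limma). Sst, which encodes somatostatin and lies under the 5 FPKM level, fell from 2.71, 2.32 and 3.796 FPKM to 0, 0.362 and 0.363 FPKM (-1.67, limma adjusted p = 0.0139).

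Over the list of islet and gut peptide hormones, 2 of 13 tested genes were called lower (Gip and Sst) and 0 higher over 9 libraries. Over all genes tested 0.117% were called lower and 0.0778% higher. The list was chosen with earlier results of these data known, and Gip met the 5 FPKM rule in N134 tumours only. The median change of the list was -0.22, beside 0.01 over all 12854 genes tested. Iapp did not pass, with means of 3449 ± 146 and 3437 ± 184 FPKM (SD, n = 3). Of 13 tested genes in a list of receptors of gut hormones, related peptides, lipids and amines, 0 were called over 9 libraries. The list median was 0.22, and -0.01 over its 11 genes that meet the 5 FPKM rule. Drd2, a dopamine receptor below that level, passed over 6 libraries (1.17, limma adjusted p = 0.0316). Vipr1, a receptor of vasoactive intestinal peptide, was at -0.65 (10.2, 10.4 and 9.27 FPKM against 5.49, 6.40 and 6.10 FPKM). Gpr119, a lipid receptor of endocrine cells, was at 0.54.

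Among genes of protein folding in the endoplasmic reticulum and of hormone processing and storage, 1 fell and 1 rose, both in the folding list. Ero1lb (ENSMUSG00000057069, chromosome 13, 12565883 to 12609526), an oxidase that forms disulfide bonds in proinsulin, fell from 93.1, 71.5 and 74.9 FPKM to 42.6, 47.2 and 42.9 FPKM. The groups did not overlap (-0.83, SE 0.12, limma adjusted p = 0.0365). Fbxo2, an F-box protein that binds sugar chains of misfolded glycoproteins, rose from 5.46, 5.02 and 5.39 FPKM to 12.5, 10.1 and 12.3 FPKM (0.999, SE 0.15, adjusted p = 0.0365 in limma). These were the only calls over 9 libraries among 30 genes of endoplasmic reticulum folding and the unfolded protein response, whose median was 0.11. Hsp90b1, a chaperone of that compartment, was at -0.37 and passed over 6 libraries only (limma adjusted p = 0.0429).

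Of 15 granin and prohormone processing genes 0 were called over 9 libraries, and 6 were higher in N134-RHAMMB tumours without overlap (14.0% of all genes tested were), with a median of 0.20. Pcsk2, a prohormone convertase, stood at 532, 457 and 488 FPKM in the N134 tumours and 782, 703 and 760 FPKM in the N134-RHAMMB tumours (0.60, limma adjusted p = 0.223 over 9 libraries and 0.0285 over 6). The granin Chgb overlapped between groups (402 to 454 FPKM against 419 to 626 FPKM). Slc30a8, the zinc transporter of insulin granules, was at 0.43 (adjusted p = 0.365 in limma). In the list of glucose sensing and channels, Ero1lb was the 1 call over 9 libraries among 15 genes. Its largest change was that of Slc2a2, the glucose transporter GLUT-2, at -1.21 (155, 120 and 126 FPKM against 77.9, 59.5 and 39.1 FPKM; limma adjusted p = 0.501 over 9 libraries and 0.0625 over 6).

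Scgn, a calcium-binding protein of endocrine granules, stood at 149, 137 and 166 FPKM against 99.7, 93.8 and 88.3 FPKM (-0.67, limma adjusted p = 0.125 over 9 libraries and 0.0267 over 6). Islet and enteroendocrine transcription factors had 0 calls among 21 tested and a median of -0.05, with 12 of the 21 below 0. Without overlap, 7 factors were higher and 0 lower, beside 14.0% and 11.3% of all genes tested. Pax4, a factor of beta cell development, was at 0.66 and Foxa2 at 0.32. Vesicle exocytosis genes had a median of 0.00 over 29 tested and 0 calls.

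Of the other genes that fell, Gng4 (ENSMUSG00000021303, chromosome 13, 13784059 to 13827897), a gamma subunit of heterotrimeric G proteins, stood at 31.0, 36.8 and 28.1 FPKM in the N134 tumours and 11.2, 9.55 and 10.8 FPKM in the N134-RHAMMB tumours. Its means were 32.0 ± 4.45 and 10.5 ± 0.865 FPKM (SD, n = 3; -1.51, SE 0.18, limma adjusted p = 0.0154). It was the 1 call among 24 tested G protein subunits, whose median was -0.19. Gng2 was at -0.68 and Gnai1 at 0.56, and neither passed.

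Vopp1 fell from 6.53, 5.47 and 5.36 FPKM to 1.79, 1.82 and 2.74 FPKM (-1.13, limma adjusted p = 0.0365). Rprml, a relative of the p53 target reprimo, fell from 37.1, 35.2 and 36.7 FPKM to 18.6, 20.6 and 23.4 FPKM (-0.78, adjusted p = 0.0373 in limma). In both genes the groups were well apart, though Vopp1 met the 5 FPKM rule in N134 tumours only, a choice that favours this direction. Gmnn (ENSMUSG00000006715, chromosome 13, 24751845 to 24761923) encodes geminin, which blocks a second round of replication in a cell cycle. It fell from 43.5, 41.6 and 44.4 FPKM to 28.4, 27.4 and 30.5 FPKM (-0.57, SE 0.09, limma adjusted p = 0.0492). Geminin was the 1 call among 26 tested genes of DNA replication, of which 20 lay above 0, with a median of 0.12. The 25 mitosis genes had a median of 0.09 and 0 calls, with Aurka, a spindle kinase, at 0.29.

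Genes that rose included several enzymes of small molecule metabolism. Ephx1 (ENSMUSG00000038776, chromosome 1, 180976210 to 181020904), which opens epoxides to diols in the endoplasmic reticulum, stood at 13.98, 16.1 and 13.8 FPKM in the N134 tumours and 39.3, 38.9 and 35.5 FPKM in the N134-RHAMMB tumours. Every N134-RHAMMB tumour held over 2 times the FPKM of any N134 tumour (1.32, SE 0.14, limma adjusted p = 0.0139). Sult4a1, a member of the sulfotransferase family, rose from 5.50, 4.65 and 4.50 FPKM to 11.0, 9.46 and 10.8 FPKM (0.96, adjusted p = 0.0365 in limma). Cmbl, a hydrolase that activates ester prodrugs, rose from 5.47, 5.56 and 4.87 FPKM to 10.9, 10.2 and 12.4 FPKM (0.95, limma adjusted p = 0.0375).

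These 3 were called higher among 37 tested genes of detoxification and antioxidant defence, and 0 were called lower. Over all genes tested 0.0778% were called higher and 0.117% lower. The median of the list was -0.02 (0.08 over the 27 that meet the 5 FPKM rule). The list was chosen with earlier results of these data known, and Sult4a1 and Cmbl met that rule in N134-RHAMMB tumours only. Nqo1, a quinone reductase, was lower, at 88.8, 76.5 and 80.7 FPKM against 61.1, 53.2 and 55.7 FPKM, and passed over 6 libraries only (-0.53, limma adjusted p = 0.184 over 9 and 0.0405 over 6). Hmox1, haem oxygenase, varied widely and overlapped (42.5 to 162 FPKM against 23.6 to 53.0 FPKM). Mt3, a metallothionein, stood at 18.2, 17.0 and 16.9 FPKM against 41.2, 39.0 and 35.1 FPKM (1.10, adjusted p = 0.148 over 9 libraries and 0.0102 over 6 in limma).

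Sgk2, a kinase related to Akt, rose from 7.20, 10.3 and 8.74 FPKM to 22.6, 18.1 and 17.5 FPKM (1.07, limma adjusted p = 0.0365). Ppp1r14a, an inhibitor of myosin phosphatase, rose from 2.77, 2.72 and 2.90 FPKM to 7.06, 6.71 and 9.25 FPKM (1.18, adjusted p = 0.0365 in limma). Pnma2, a paraneoplastic antigen, rose from 3.67, 4.10 and 3.31 FPKM to 8.95, 8.40 and 8.87 FPKM (1.06, limma adjusted p = 0.0365). In all 3 the lowest N134-RHAMMB tumour was above the highest N134 tumour. Ppp1r14a and Pnma2 met the 5 FPKM rule in N134-RHAMMB tumours only, a choice that favours this direction. Mrpl34 (ENSMUSG00000034880, chromosome 8, 71464959 to 71465747), a protein of the mitochondrial ribosome, rose from 40.2, 39.7 and 38.9 FPKM to 65.3, 59.3 and 60.6 FPKM (0.63, SE 0.10, limma adjusted p = 0.0373). It was the 1 call among 30 mitochondrial ribosomal proteins, of which 23 lay above 0 (median 0.13). Oxidative phosphorylation had 23 of 29 genes above 0, a median of 0.16 and 0 calls.

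**Figure D2:**
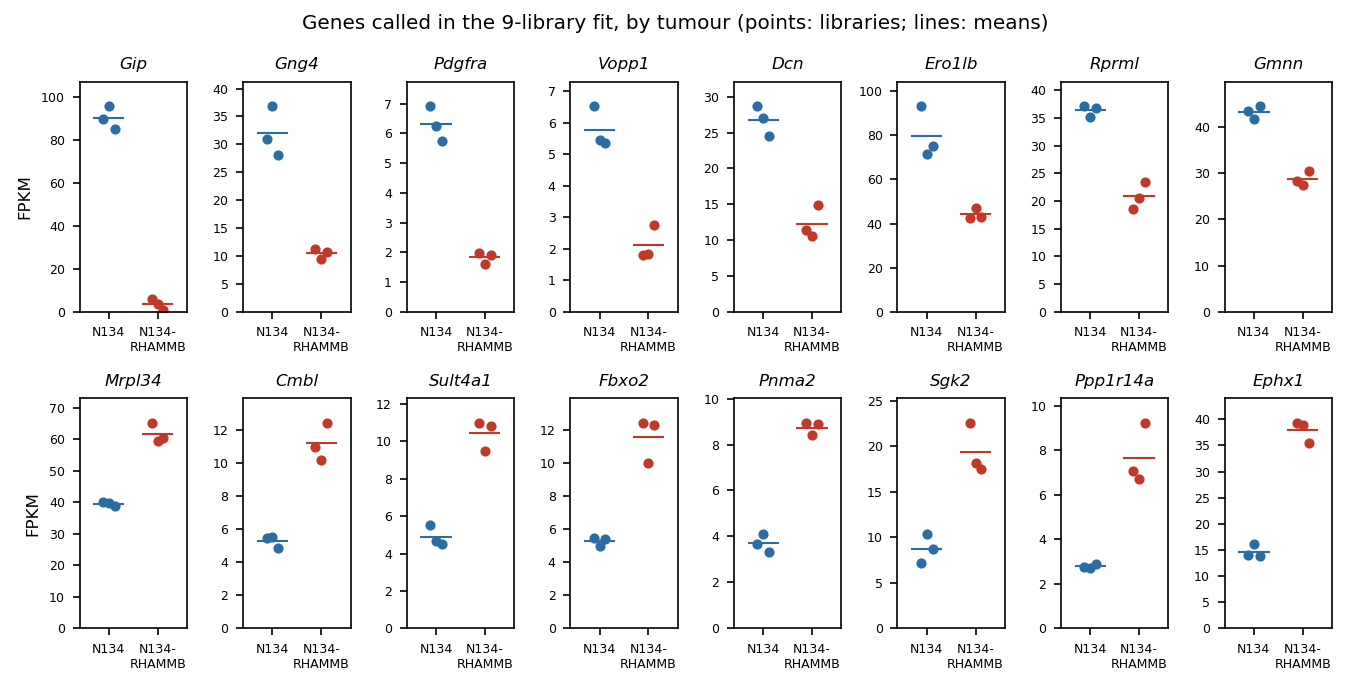
FPKM of 16 of the 17 genes called in the 9-library fit in the 3 N134 tumours (blue) and the 3 N134-RHAMMB tumours (red), each panel with its own axis from 0, points for libraries and lines for group means. In each panel the 3 points of one group lie apart from those of the other, from 85.1 against 6.05 FPKM at the nearest pair of Gip to 41.6 against 30.5 FPKM for Gmnn.

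Several large changes passed in the fit of the 6 subcutaneous libraries and not in the fit of 9. Spock2, a secreted proteoglycan, stood at 76.0, 49.5 and 56.9 FPKM in the N134 tumours and 8.65, 9.69 and 13.2 FPKM in the N134-RHAMMB tumours (-2.42, limma adjusted p = 0.0102 over 6 libraries and 0.105 over 9). Arhgap36, a regulator of hedgehog and protein kinase A signalling, stood at 27.2, 19.5 and 13.4 FPKM against 2.64, 1.41 and 3.44 FPKM (-2.58, adjusted p = 0.0239 and 0.0998 in limma). P2ry1, a receptor for ADP, stood at 27.0, 22.3 and 24.8 FPKM against 4.23, 6.05 and 7.26 FPKM (-1.93, limma adjusted p = 0.0147 and 0.180). In these 3 the lowest N134 tumour held more than 3 times the FPKM of the highest N134-RHAMMB tumour.

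Others on the low side were Asb4 (-1.70), the histone gene Hist1h2af (-1.36), Kitl, the ligand of the receptor Kit (-1.30), Plagl1, an imprinted zinc finger factor (-1.25), Podxl2 (-1.23) and the matrix protease Mmp2 (-1.17). Dusp4, a phosphatase that acts on ERK, stood at 15.3, 19.1 and 16.5 FPKM against 8.08, 6.70 and 9.22 FPKM (-1.002, limma adjusted p = 0.0305 over 6 libraries and 0.177 over 9). Of 18 tested genes of EGF receptors, ligands and ERK feedback 0 were called over 9 libraries, with a median of -0.15. Nrg1, a ligand of that family, was at -0.77 and Erbb3, a receptor, at 0.81.

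On the high side, Rhox2g, a homeobox gene of an X-linked family with near-identical copies, stood at 0.421, 0.238 and 0.412 FPKM against 5.49, 6.70 and 6.40 FPKM (2.41, limma adjusted p = 0.00238 over 6 libraries and 0.259 over 9). It was the 1 gene of the 114 that was called in all 6 fits that left out a subcutaneous library. Cped1 stood at 3.19, 3.80 and 4.47 FPKM against 24.7, 14.7 and 22.2 FPKM (2.14, limma adjusted p = 0.0147 over 6 libraries). Wfdc16 (1.74), Coch, an extracellular matrix protein of the inner ear (1.68), Tmem212 (1.52), Insc (1.38), Cabp7, a calcium-binding protein (1.26), and Serpina1e, a protease inhibitor with near-identical copies (1.24), followed. Metastases spread widely in several of these genes, as in Rhox2g at 0.204, 19.5 and 11.6 FPKM.

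Genes that reached 5 FPKM in 1 group only differ between groups by that choice, and their values are a description. In N134 tumours only, the 5 largest changes were those of Gip, Arhgap36, P2ry1, Asb4 and Pdgfra. In N134-RHAMMB tumours only, Rhox2g, Cped1, Wfdc16 and Coch were among the 5 largest. Of the 17 genes called over 9 libraries, 9 were at 5 FPKM in both groups, 3 in N134 tumours only and 5 in N134-RHAMMB tumours only. Groups did not overlap in 1437 of the 9158 genes with N134-RHAMMB higher (15.7%, beside 14.0% of all genes tested; of these 1319 genes at 5 FPKM in both groups) and in 986 with N134 higher (10.8%, beside 11.3%; of these 849). With 3 libraries on each side, the smallest p that an exact permutation test can reach is 0.1.

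Fibroblast and macrophage transcripts were lower in N134-RHAMMB tumours. Pdgfra (ENSMUSG00000029231, chromosome 5, 75152292 to 75198215), a growth factor receptor of fibroblasts, fell from 6.91, 6.26 and 5.73 FPKM to 1.98, 1.62 and 1.91 FPKM (-1.36, SE 0.15, limma adjusted p = 0.0139). Dcn (ENSMUSG00000019929, chromosome 10, 97479500 to 97518162), the collagen-binding proteoglycan decorin, fell from 28.7, 27.1 and 24.5 FPKM to 11.4, 10.6 and 14.9 FPKM (-1.07, SE 0.16, limma adjusted p = 0.0365). Both genes were apart between groups in every tumour, though Pdgfra met the 5 FPKM rule in N134 tumours only, a choice that favours this direction. In a bulk tumour fewer cells of a type and less RNA per cell cannot be told apart.

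The 28 fibroblast and matrix genes summed to 1568, 1421 and 1165 FPKM in the N134 tumours and to 748, 644 and 982 FPKM in the N134-RHAMMB tumours, without overlap. Of these 28, 2 were called lower over 9 libraries and 4 over 6, beside 0.117% and 0.576% of all genes tested. In the list 27 genes lay below 0, and the median was -0.77 beside 0.01 over all genes tested. Lum, the proteoglycan lumican, stood at 11.5, 11.97 and 11.4 FPKM against 4.62, 4.76 and 6.14 FPKM, and Mmp2 at 17.9, 15.2 and 16.7 FPKM against 6.49, 5.34 and 9.08 FPKM. Fn1, fibronectin, was at -1.14 and did not pass (adjusted p = 0.133 in limma).

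The 25 macrophage and monocyte genes summed to 941, 1308 and 757 FPKM against 541, 554 and 732 FPKM, and all 25 lay below 0 (median -0.66). None of the 25 was called in limma over 9 libraries and 1 over 6, Cd14, the co-receptor for lipopolysaccharide, which lies under the 5 FPKM rule (-1.02; 4.77, 6.51 and 4.997 FPKM against 1.99, 2.72 and 1.81 FPKM). Trem2, a lipid receptor of macrophages, stood at 14.3, 22.9 and 12.3 FPKM against 6.47, 7.75 and 10.4 FPKM (-0.91). N134-RHAMMB tumour 4 had the highest sum of its group for both cell types, and it lay close to N134 tumour 3. No gene of either list was at 0 in all 6 tumours. At 1 FPKM or more were 27 or 28 of the 28 fibroblast genes and 22 to 25 of the 25 macrophage genes in each tumour.

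Among complement genes 1 fell. C3, the central complement component, lies under the 5 FPKM rule because N134 tumour 1 held 4.82 FPKM, and fell from 4.82, 5.14 and 8.18 FPKM to 1.65, 1.15 and 1.99 FPKM (-1.42, limma adjusted p = 0.0365). It was the 1 call over 9 libraries among 21 tested complement genes, 19 of which lay below 0 (median -0.62). C4b, another component, was at -0.89 and C1qc, made by macrophages, at -0.82. Chemokine genes had 0 calls over 9 libraries among 23 tested and a median of -0.45. Cx3cl1, the chemokine fractalkine, stood at 18.9, 14.3 and 16.3 FPKM against 9.18, 7.55 and 6.66 FPKM and passed over 6 libraries only (-0.99, limma adjusted p = 0.0368). The part of the fibroblast and macrophage transcripts in these changes was not tested.

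Globins, the oxygen carriers of red cells, were lower in N134-RHAMMB tumours without passing. The 9 erythroid genes with a row summed to 1279, 1966 and 990 FPKM against 452, 412 and 880 FPKM. Hba-a1 was at -1.53 (limma adjusted p = 0.133) and Hbb-bt at -1.22 (adjusted p = 0.108 in limma), and their near-identical copies make single values uncertain. Pericyte and smooth muscle genes summed to 207, 281 and 254 FPKM against 138, 127 and 224 FPKM (median -0.31, 0 of 13 called). Endothelial genes overlapped, at 156 to 188 FPKM against 151 to 173 FPKM (median -0.06, 0 of 17 called). Of 12 lymphocyte and natural killer cell genes, Cd3d, Ncr1 and Prf1 were listed at 0 in all 6 tumours, and only Cd4 passed the filter. Cd4 stood at 2.43, 2.94 and 1.85 FPKM in the N134 tumours and at 4.47, 1.74 and 4.02 FPKM in the N134-RHAMMB tumours (0.32), and the list summed to 2.08 to 4.80 FPKM.

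**Figure D3:**
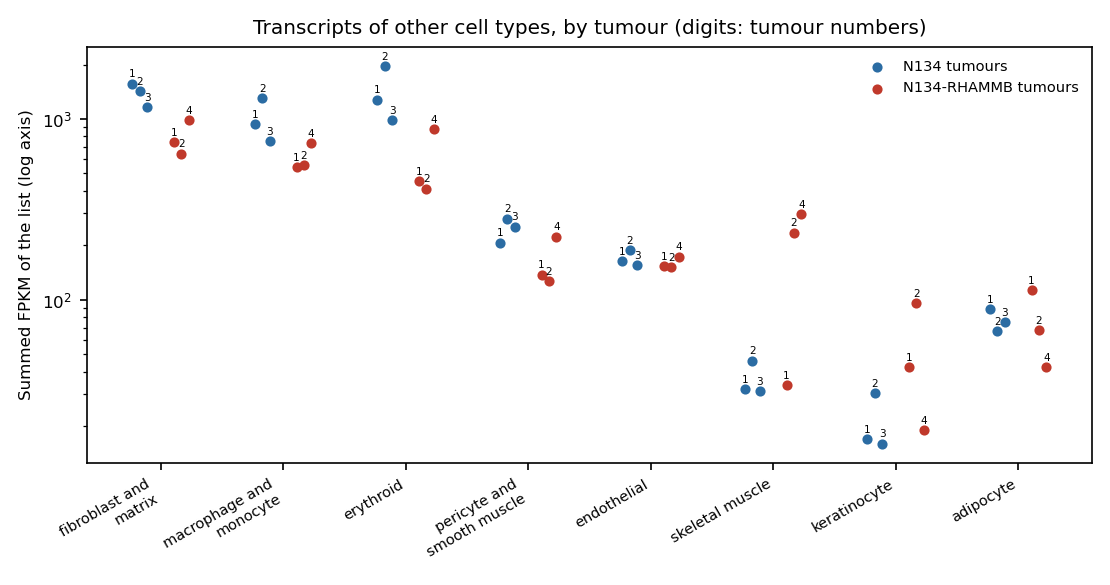
Summed FPKM (log axis) of 8 lists of marker genes of other cell types in each subcutaneous tumour, with the tumour number beside each point, N134 in blue and N134-RHAMMB in red. Fibroblast sums are 1165 FPKM or more in N134 tumours and 982 FPKM or less in N134-RHAMMB tumours, and muscle sums of 235 and 298 FPKM stand apart in N134-RHAMMB tumours 2 and 4.

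Skeletal muscle genes had 0 calls over 9 libraries among 5 tested. Mylpf, a myosin light chain of fast muscle, stood at 8.61, 18.0 and 9.66 FPKM in the N134 tumours and at 11.0, 106 and 117 FPKM in the N134-RHAMMB tumours, and it overlapped between groups. Actn3, the fast-muscle actinin, differed from the rest of the list: it stood at 6.16 FPKM in N134-RHAMMB tumour 1, which held little other muscle transcript, beside 5.69 and 8.20 FPKM in tumours 2 and 4 and 2.15, 3.28 and 2.32 FPKM in the N134 tumours (1.10, limma adjusted p = 0.0661 over 9 libraries and 0.0434 over 6). The median of the muscle list was 1.10, and -0.06 without N134-RHAMMB tumours 2 and 4. Without these 2 tumours the N134-RHAMMB arm is 1 library, assumed to vary like the other groups, and 1 of the 9158 genes was called, Gip.

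Hyaluronan genes other than Hmmr did not pass either. Cd44, a hyaluronan receptor, stood at 8.17, 9.79 and 8.15 FPKM against 12.7, 11.5 and 11.9 FPKM (0.43, limma adjusted p = 0.207). Stab1, a scavenger receptor on macrophages and endothelium, overlapped between groups (-0.52). Over 9 libraries limma called 0 of 14 tested genes of this list at an adjusted p below 0.05, and the median was -0.11.

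Immediate-early genes, which cells switch on within minutes of a stimulus, lay below 0 in 21 of 22 tested, with a median of -0.26 and 0 calls. Ctgf and Cyr61, matrix-associated growth regulators, were at -1.27 and -1.07, Egr1 at -0.999 and Fos at -0.85. Glycolysis and hypoxia genes had a median of -0.22 over 28 tested and 0 calls over 9 libraries. Pfkl, a phosphofructokinase, stood at 43.7, 42.4 and 44.2 FPKM against 25.9, 24.9 and 31.9 FPKM, without overlap (-0.65, limma adjusted p = 0.110 over 9 libraries and 0.0393 over 6). Ldha, lactate dehydrogenase, overlapped because N134 tumour 2 held 50.9 FPKM and the other 5 tumours 18.3 to 25.8 FPKM (-0.61).

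Some lists stood near 0. The median was 0.00 for cholesterol and fatty acid synthesis (27 tested), -0.03 for class I presentation and interferon response (30 tested) and -0.06 for CDK inhibitors and neuroendocrine tumour suppressors (19 tested), each with 0 calls. In the last list Cdkn2b was at -0.41 and Cdkn2a at -0.26. Hepatocyte genes had a median of 0.04 over 18 tested and of 0.57 over the 8 that meet the 5 FPKM rule. Of the 18 tested, 7 were higher without overlap and 3 lower, beside 14.0% and 11.3% of all genes tested. One of them passed over 6 libraries, Serpina1a, a protease inhibitor with near-identical copies, at 22.9, 26.7 and 28.9 FPKM against 48.7, 46.7 and 46.5 FPKM (0.83, limma adjusted p = 0.0228). The medians of other lists were, for adipocyte genes -0.30 over 6, Schwann cell genes 0.23 over 4, neutrophil genes -0.72 over 3 and keratinocyte genes 0.23 over 6, with 0 calls over 9 libraries. Without N134-RHAMMB tumours 2 and 4 the adipocyte median was 0.42 and the keratinocyte median -0.05. Among abundant genes, Nnat, Sepp1, Actb, Eef1a1 and Hist2h2bb had changes between -0.13 and 0.16 and none was called.

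The changes were not spread evenly over the genome, a pattern noticed after the values were seen and described here without a test. On chromosome 8, 86.1% of 468 genes lay above 0 and their median was 0.22. On chromosome 10, 15.3% of 444 genes lay above 0 and the median was -0.21. Chromosomes 2 (0.15) and 14 (0.14) were on the high side, and 3 (-0.17), 13 (-0.14) and 6 (-0.10) on the low side, beside a median of 0.03 over the 9158 genes. These medians are small, about the size of the median absolute change of single genes.

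The shifts were seen library by library. Each gene was set relative to its mean over the 6 tumours and each library to its own median, so that the groups mirror each other by construction. The chromosome 8 median was then -0.09, -0.10 and -0.11 in N134 tumours and 0.11, 0.11 and 0.07 in N134-RHAMMB tumours. That of chromosome 10 was 0.13, 0.09 and 0.11 against -0.13, -0.12 and -0.10. The groups did not overlap on 17 of 20 chromosomes, and they overlapped on 17, 18 and X. With another scaling or pseudocount, without single libraries, without the cell type list genes, over genes at 5 FPKM in both groups only, or without N134-RHAMMB tumours 2 and 4, the median ran from 0.20 to 0.27 on chromosome 8 and from -0.24 to -0.16 on chromosome 10.

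**Figure D4:**
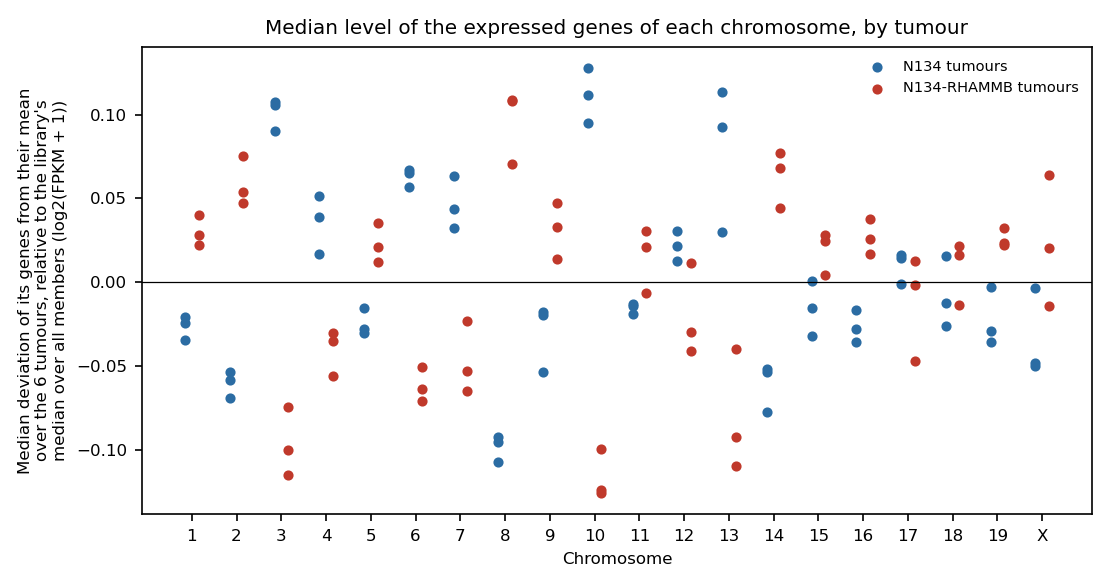
For each chromosome, the median over its expressed genes of the deviation from the mean of the 6 tumours (log2(FPKM + 1) scale, relative to the library's median over all these genes), 1 point per library, N134 in blue and N134-RHAMMB in red. N134-RHAMMB points lie above N134 points on chromosome 8 (0.07 to 0.11 against -0.11 to -0.09) and below them on chromosome 10.

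The genes called over the 6 subcutaneous libraries followed this pattern in part. Chromosomes 7 and 12, with medians of -0.08 and -0.05, hold 7.34% and 3.43% of the 9158 genes. There 5 and 8 genes were called higher and 0 lower, against the sign of those medians over the whole chromosome. Chromosome 8 holds 5.11% of the 9158 genes, chromosome 10 4.85% and chromosome 13 3.91%. Of the 70 higher, 16 lay on chromosome 8, with a median change of 0.53, among them Mrpl34, Mt3, Asah1, a lysosomal ceramidase (0.66), and Ddhd2, a phospholipase (0.65). Another 4 genes of chromosome 8, Dusp4, Mmp2, Cx3cl1 and Nqo1, were called lower, against the direction of the chromosome. Of the 44 lower, 11 lay on chromosome 13, all between 9684836 and 34078008. On chromosome 10 lay 8, among them Spock2, Plagl1, Kitl, Dcn and Lum. Dcn, Lum and Mmp2 also belong to the fibroblast and matrix list, of which 27 of 28 genes lay below 0. The 40 neighbours of a gene, 20 on each side where the chromosome allows, had a median above 0 for 57 of the 70 higher genes and below 0 for 30 of the 44 lower genes, beside 66.6% and 33.4% of all 9158. That neighbour median was above 0 for 0 of the 5 higher genes of chromosome 7 and for 4 of the 8 of chromosome 12. The change of Gip (-4.55) stood beside a neighbour median of 0.02, that of Ephx1 (1.32) beside 0.12 and that of Pdgfra (-1.36) beside 0.12. The neighbour median was -0.40 for Gng4, -0.36 for Ero1lb, -0.45 for Gmnn and for Scgn and 0.15 for Mrpl34.

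Within chromosomes the shift could change along the length. When chromosome 13 was split into 8 runs of 44 or 45 neighbouring genes, the medians were -0.40 (3538075 to 21754503), -0.55 (21779883 to 24761923), -0.25, -0.19, -0.12, 0.06, 0.06 and 0.02. The low values lay in the first part of the chromosome and the last 3 runs were near 0. The second run varied widely between libraries of a group. Its library medians ran from 0.01 to 0.51 in N134 tumours and from -0.50 to -0.05 in N134-RHAMMB tumours. Those of the first run were 0.15 to 0.25 and -0.25 to -0.16. On chromosome 6 the first 2 of 10 runs were at 0.13 and 0.07 and the last 7 between -0.20 and -0.12. Chromosome 12 went from 0.13 in its first 2 runs to -0.14 in its last. On chromosome 10 the runs lay between -0.35 and -0.08 except the last, at 0.10, and on chromosome 8 all 11 lay between 0.13 and 0.28.

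**Figure D5:**
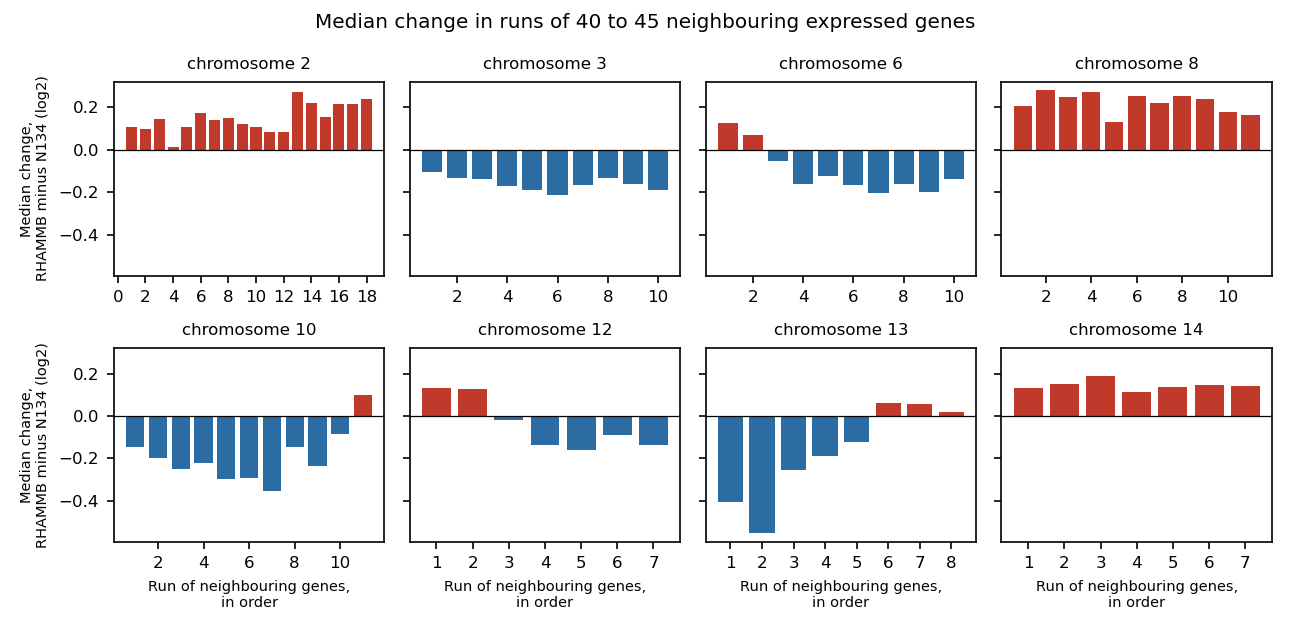
Median change (N134-RHAMMB minus N134, log2(FPKM + 1) scale) in consecutive runs of 40 to 45 expressed genes, in order along 8 chromosomes, with bars from 0 (red above, blue below). All 11 runs of chromosome 8 are above 0, and the first 2 runs of chromosome 13 are the lowest, at -0.40 and -0.55.

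The low stretch of chromosome 13 holds the Hist1 cluster of replication-dependent histone genes, which package newly made DNA. All 47 Hist1 genes, 46 of them in the first 2 runs, lay below 0, with a median of -0.57, 0 called over 9 libraries and 5 over 6, and their near-identical copies make single values uncertain. Hist1h1d, a linker histone, stood at 603, 688 and 646 FPKM in the N134 tumours and 440, 470 and 477 FPKM in the N134-RHAMMB tumours (-0.48, limma adjusted p = 0.217 over 9 libraries and 0.0375 over 6). Hist1h2bc, a core histone, stood at 98.5, 111 and 109 FPKM against 60.1, 68.7 and 67.8 FPKM (-0.69, adjusted p = 0.141 and 0.0239 in limma). In both histone genes all N134-RHAMMB tumours were below all N134 tumours.

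The 9 histone genes outside Hist1 had a median of -0.05, and 7 of them lay below 0. The 44 other genes in the first 2 runs of chromosome 13 had a median of -0.37, and 40 of them lay below 0. They include Gng4, Ero1lb and Gmnn, the 3 genes of chromosome 13 called over 9 libraries. Also in this stretch were Scgn and Zmynd11, a chromatin reader (63.6, 54.8 and 60.1 FPKM against 40.1, 33.8 and 39.7 FPKM; -0.64, limma adjusted p = 0.0698 over 9 libraries and 0.0334 over 6). DNA was not measured in these samples, and the source of the shifts by chromosome was not tested.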

How the data were processed

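RNA abundance was read from a table of FPKM values that the authors deposited for 9 libraries, with 22053 rows. The submitters' processing notes name bcl2fastq 2.19, STAR 2.5.2, Cufflinks 2.1.1 and GRCm38 without giving their roles. Neither strand, read length nor library preparation was found in the labels. Reads are relative to all mapped fragments, so a transcript that takes many fragments lowers the FPKM of the others. Rows with a failed estimate (7) and rows that repeat a symbol (102) were left out, 40 rows with low-data status were kept, and 21944 genes remained.

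Genes with at least 1 FPKM in at least 3 libraries (12854) were tested on log2(FPKM + 1), a scale that understates the change of low genes. The test was limma 3.58.1 (R 4.3.3), with a mean per group, an intensity trend and the two-sided contrast of N134-RHAMMB minus N134 subcutaneous tumours. Benjamini-Hochberg adjustment ran over all genes tested, with calls at an adjusted p below 0.05. All 9 libraries entered the fit, with 6 residual degrees of freedom, and the 6 subcutaneous libraries alone were an alternative with 4. The filter counted all 9 libraries in both fits, so the metastases alone could admit a gene to the genes tested. The code was tested on simulated data. FPKM keeps no counts, so the depth behind a value is an estimate and no counting intervals are given.

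The members and the 35 gene lists were chosen with earlier results of these data known. Named genes were all members called over 9 libraries, the 12 largest changes each way over 6 libraries, Hmmr, the largest changes of each list, the 8 most abundant members and the largest changes among members at 5 FPKM in 1 group only. The grouping by chromosome, the Hist1 genes, the neighbour medians and the motifs were chosen after the data were seen. In the fit without 1 library of a group of 3, the other libraries were kept. Counts include 1 selected gene and 1 of the lists that are not reported here. Promoter windows were read from RefSeq. Figures were drawn with matplotlib 3.10.9.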

Additional observations from a re-analysis of the deposited data

How the results depend on the processing

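Calls over all genes tested (25) and over the 9158 expressed genes (17) depended on the libraries and settings. With the 6 subcutaneous libraries alone they were 169 and 114, with limma array weights 2629 and 1922, with quantile normalization 38 and 24, with no filter on low values 17 and 7, and with only genes at 5 FPKM in a group tested 16 and 16. With a minimum absolute change of 0.5 they were 1 and 1, and without N134-RHAMMB tumours 2 and 4 also 1 and 1, the gene being Gip each time. Restricted to genes at 5 FPKM in both groups, the count was 9 of the 17. Leaving out 1 library at a time gave 0 to 193 calls over all genes and 0 to 139 over the expressed genes, with the highest count without metastasis 2. In the fit of 6 libraries the 114 became 1, 6 and 17 without N134 tumours 1, 2 and 3 and 10, 11 and 67 without N134-RHAMMB tumours 1, 2 and 4. The remaining alternatives for these counts (pseudocount 0.1, median-of-ratios scaling, no intensity trend, thresholds of 2 and 10 FPKM) stayed within 1.5 times. The cause was not tested.

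The groups share replicate numbers 1 and 2 only, and the deviations of same-numbered tumours correlated at 0.0488 and 0.129, so the numbers were not taken as pairs. With the number as a replicate block, 1 gene was called over 9 libraries, Gip, and 0 over 6, where the 114 also became 0.

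Over the alternatives, genes named and called in the 9-library fit kept their call in 192 cases, lost it in 205 and changed direction in 0. Genes named and not called stayed so in 1478 cases, gained a call in 154 and changed direction in 20, of which 18 were in Iapp, Sepp1 and Hist2h2bb, whose changes lay near 0. Iapp was at 0.081 with quantile normalization, 0.031 with array weights, 0.057 without N134-RHAMMB tumours 2 and 4 and 0.072 with the replicate block over 6 libraries. Sepp1 was at 0.034 with array weights, 0.063 without those 2 tumours, 0.076 with the block over 9 libraries and 0.059 over 6. Hist2h2bb was at 0.025 without those 2 tumours, 0.085 with the block over 9 libraries and 0.081 over 6. Without single libraries, Iapp ran from -0.037 to 0.038, Sepp1 from -0.062 to 0.035 and Hist2h2bb from -0.11 to 0.052. Cd4 was at -0.025 with the block over 9 libraries. Mylpf, a muscle gene, was at -0.062 without N134-RHAMMB tumours 2 and 4. The change of Gip ran from -5.04 to -3.69. Without N134-RHAMMB tumours 2 and 4, which leaves an arm of 1 library, list medians turned from 1.10 to -0.06 for skeletal muscle, from -0.30 to 0.42 for adipocyte and from 0.23 to -0.05 for keratinocyte genes. Those of glucose sensing (0.02), detoxification (0.06), cholesterol synthesis (0.14), vesicle exocytosis (0.01) and class I presentation (0.01) also turned from below to above 0.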

Other observations

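The 3 liver metastases of N134-RHAMMB cells entered the filter on low values and the fit's estimate of spread, and not the contrast. Their values are given as a description. Gip was listed at 0.135, 0 and 0 FPKM in metastases 1, 2 and 3, on the side of the N134-RHAMMB subcutaneous tumours. Gng4 stood at 7.51, 5.09 and 8.42 FPKM, Gmnn at 25.4, 26.0 and 26.1 FPKM and Ephx1 at 42.5, 54.9 and 62.5 FPKM. Decorin differed from these, at 34.0, 32.5 and 24.4 FPKM in metastases, close to the 24.5 to 28.7 FPKM of N134 subcutaneous tumours. Hepatocyte genes summed to 7089, 7241 and 6801 FPKM in metastases and to 602 to 752 FPKM in the 6 subcutaneous tumours, and the part of liver transcripts in the Ephx1 and Dcn values was not tested.

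Chromosome medians of single metastases, on the same scale as those of the tumours, also stood apart. Metastasis 3 was at 0.23 on chromosome 8, beside -0.004 and 0.02 in metastases 1 and 2. Metastasis 2 was at 0.39 on chromosome 9, at 0.25 on chromosome 1 and at 0.21 on chromosome 4, where metastases 1 and 3 were both at -0.14. It was at -0.29 on chromosome 19. These values rest on 1 library each. On chromosome 18 metastases 1, 2 and 3 were all low, at -0.17, -0.24 and -0.23. The part of liver transcripts in the chromosome medians of metastases was not tested.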
